A study of Mus musculus with 2 samples.

Results

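A transcript-detection rule written for aerocytes was met by 177 of 29837 lung cells, of which 174 were in the library labelled GFI1 WT and 3 in the library labelled GFI1 KO. A cell qualified if it held transcripts of at least 3 of 6 endothelial genes (*Cldn5*, *Ptprb*, *Cyyr1*, *Ldb2*, *Tspan7*, *Ramp2*), of at least 2 of 5 aerocyte genes (*Ednrb*, *Tbx2*, *Fibin*, *Apln*, *Car4*), and 0 UMIs (unique molecular identifiers, each counted as 1 captured transcript) of *Cd3e*, *Cd79a*, *Csf1r* and *Mertk*. The comparison cells, called remaining endothelial cells, met the first and last conditions but had at most 1 of the 5 aerocyte genes. There were 1272 of them in the WT-labelled library and 69 in the KO-labelled library. Since measured transcripts chose the members, the 15 genes of the rule are described here without any test.

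The study asked what GFI1, a transcriptional repressor known from blood cell development, does in immune cells of barrier tissues such as the lung, so endothelial cells were not its subject. Perfused lungs of adult mice on the C57BL6/J background were dissociated, living cells were sorted without selection for any lineage, and 10x Genomics 3′ single-cell libraries were made, 1 from a mouse labelled GFI1 KO and 1 from a mouse labelled GFI1 WT. No treatment was given to either, as far as the labels say, and the labels name no allele beyond the genotype. After removal of cells with under 500 UMIs, under 200 genes or over 20% mitochondrial UMIs, the KO-labelled library held 10495 cells with a median of 11076 UMIs and the WT-labelled library 19342 cells with a median of 6217 UMIs. With 1 library per label analysed here, an effect of the genotype and a difference between the mice, the dissociations or the libraries cannot be told apart, and all intervals below are exact 95% intervals for counting error only. The libraries shared 74 cell barcodes, none of them a member. *Gfi1* itself gave 0 UMIs in the members of either library, which in the WT-labelled members allows a level of up to 2.66 CPM (counts per 1000000 UMIs), taking 3 UMIs as the limit that a count of 0 leaves here and below. Outside the endothelial cells its level was 3.61 CPM in the KO-labelled and 3.63 in the WT-labelled library (340 and 467 UMIs), so this 3′ count did not tell the labels apart. In B cells *Gfi1* was higher in the KO-labelled library, at 12.4 against 5.59 CPM (55 and 95 UMIs), though that label names a knockout of the gene. Whether the counted end of the transcript lies in the deleted part of the gene was not analysed here. These counts therefore do not decide whether the label holds.

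Aerocytes are large, thin capillary endothelial cells of the alveolus that lie against type 1 epithelial cells and are known for gas exchange. They share the alveolar capillary network with general capillary cells, which act as its progenitors and carry receptors for signals that aerocytes make. In this exchange aerocytes produce apelin (*Apln*) and KIT ligand (*Kitl*), general capillary cells carry the apelin receptor (*Aplnr*) and KIT (*Kit*), and aerocytes respond to VEGFA through KDR and to endothelin through EDNRB.

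The label was checked against 12 further aerocyte genes that the rule did not use, and it held for a minority of the members. In the WT-labelled library 101 of the 174 members (58.0%, 50.3 to 65.5) had exactly 2 of the 5 rule genes, 36 had 3, 25 had 4 and 12 had all 5. The summed level of the 12 further genes was 2392 CPM in remaining endothelial cells with 0 rule genes and 2648 with 1, against 2685 in members with 2, 5137 with 3, 8209 with 4 and 19424 with 5. Members with 2 rule genes thus lay next to the remaining cells, and the members with 5 stood far above them. The sum over 13 general capillary genes was 12044 with 0 rule genes and 12636 with 1, lower in members at 10538 with 2, 9998 with 3 and 10278 with 4, and lowest at 4719 with 5. These sums compare 1 set of genes between groups of cells, and 3′ counts do not grow with the length of a transcript. The selected cells are therefore called members of the rule below, not aerocytes.

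**Figure D1:**
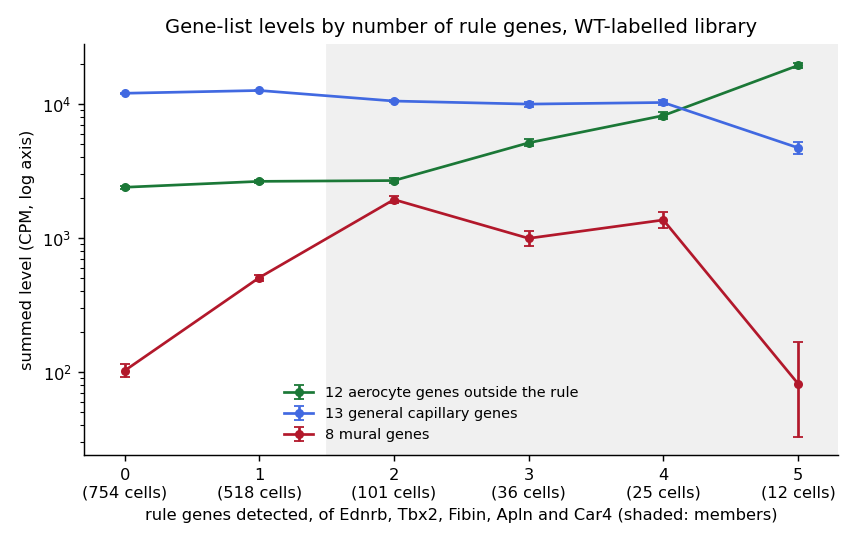
Summed level in CPM (log axis) of 12 aerocyte genes outside the rule, 13 general capillary genes and 8 mural genes, against the number of the 5 rule genes detected, in the WT-labelled library; bars are exact 95% intervals for counting error and members are shaded. The aerocyte sum stays near 2685 up to 2 rule genes and reaches 19424 at 5, where the capillary sum is lowest and the mural sum is 81.8.

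Cell by cell, the members spread over a wide range of both sums. Members with 5 rule genes had 85.4 to 248 aerocyte UMIs per 10000 with a median of 218, whereas members with 2 had 5.11 to 107 with a median of 28.0. The medians were 50.2 with 3 rule genes and 62.6 with 4, and the highest cell of all, at 327, was among those with 4. The general capillary sum had a median of 33.6 per 10000 in members with 5 rule genes and 124 in members with 2. More aerocyte than capillary UMIs were found in 39 of the 174 members, made up of 9 of 101 with 2 rule genes, 9 of 36 with 3, 10 of 25 with 4 and 11 of 12 with 5. Of these 39 cells, 6 carried 3 or more mural markers and 3 were called doublets by Scrublet.

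**Figure D2:**
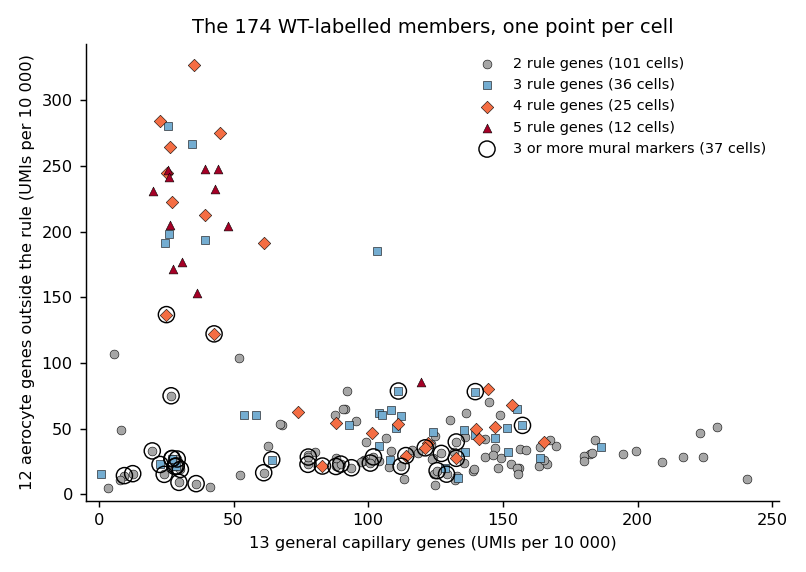
Each of the 174 WT-labelled members as a point, with the UMIs per 10000 of 13 general capillary genes (horizontal) and of 12 aerocyte genes outside the rule (vertical), by number of rule genes; open rings mark the 37 cells with 3 or more mural markers. The cells with 5 rule genes lie mostly at the upper left with some of those with 3 or 4, and the cells with 2 lie along the bottom.

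The pair of rule genes that most often qualified a cell was *Tbx2* with *Car4*, in 46 of the 101 members with 2 genes. *Car4*, a membrane-bound carbonic anhydrase, was detected in 151 members, *Tbx2*, a T-box transcription factor, in 121, *Fibin* in 78, *Ednrb*, an endothelin receptor, in 77 and *Apln* in 43. Outside the endothelial cells *Tbx2* had 921 CPM in 31 mural cells of the same library (at least 4 of 8 mural markers, at most 1 endothelial gene) and *Car4* had 409 in alveolar macrophages, against 0.706 and 44.0 in B cells. At the edge of the rule, 518 remaining cells had exactly 1 of the 5 genes and 101 members exactly 2. Likewise 10 members had exactly 3 of the 6 endothelial genes, and 11 cells with 2 endothelial genes would otherwise have qualified. All 6 endothelial genes were found in 134 of 174 members (77.0%) and in 1064 of 1272 remaining cells (83.6%).

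Among genes outside the rule, 447 of 10911 genes with at least 30 UMIs (4.1%) were at least 2-fold higher in the WT-labelled members than in the remaining endothelial cells, and 476 (4.36%) were at least 2-fold lower. With at least 3 rule genes required, 419 were higher and 1158 lower. With the rule applied to cells thinned to 1500 UMIs, 453 of 11810 genes were higher and 1669 lower. The members contributed 1127657 UMIs and the remaining cells 5702483 after removal of ribosomal, mitochondrial and predicted Gm genes. Counting all genes, the median was 6100.5 UMIs per member and 4497 per remaining cell. The part of this depth gap in meeting the rule was not tested on its own. Of the 12 aerocyte genes, 7 were at least 2-fold higher and 0 at least 2-fold lower, and their median log2 ratio was 1.06 against 0.02 over all genes. That median was 1.73 with at least 3 rule genes required, 1.97 without the *Mertk* clause and 2.61 with the rule applied to cells thinned to 1500 UMIs. *Emp2*, a membrane protein of the tetraspan family, had 932 CPM (877 to 990) in members and 133 (123 to 143) in remaining cells, a ratio of 7.02 (6.39 to 7.72). *Chst1*, a sulfotransferase, had 47.9 against 3.68 CPM, a ratio between 7.73 and 22.7. *Rprml*, a small membrane protein, was 12.4-fold higher on 27 UMIs in members. *Igfbp7*, a secreted growth factor-binding protein, was 3.38-fold higher, *Cdkn2b*, a cell cycle inhibitor, 3.56-fold on 19 UMIs, *Kdr*, the main VEGFA receptor, 2.17-fold and *Kitl* 2.01-fold. *Sirpa*, *Pmp22*, *Tbx3*, *Prx* and *Icam2* had ratios between 1.15 and 1.86.

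The levels of *Emp2*, *Igfbp7*, *Kdr* and *Kitl* rose with each further rule gene, and that of *Chst1* rose from 3 rule genes on. Other aerocyte genes were not split singly in this way. *Emp2* was at 99.1 CPM with 0 rule genes, 170 with 1, 374 with 2, 985 with 3, 1509 with 4 and 3971 with 5. *Igfbp7* was at 259 and 321 in the remaining cells with 0 and 1 rule genes, and at 356, 862, 1643 and 4730 in members with 2, 3, 4 and 5. *Chst1* was at 3.04 with 2 rule genes (2 UMIs), beside 3.34 and 4.07 in the cells with 0 and 1, and at 222 with 5. Comparing members with 2 rule genes with the remaining cells, 1 of the 9 aerocyte genes with enough UMIs was at least 2-fold higher and 0 at least 2-fold lower, where 5.06% and 5.74% of all 10777 genes were, and the median log2 ratio was 0.22.

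Of 13 general capillary genes, 0 were 2-fold higher and 0 were 2-fold lower over all members, where 4.1% and 4.36% of all genes were. For a list of 13, counts of 0 lie near those shares. The median log2 ratio of the list was -0.32. That median was -0.65 without the *Mertk* clause of the rule and -1.39 with the rule applied to cells thinned to 1500 UMIs. It was -0.19 with cells of 3 or more mural markers, described below, left out. The ratios of *Aplnr* (0.794, 0.644 to 0.971), *Kit* (0.692, 0.615 to 0.775), the endothelial surface protein gene *Cd93* (0.796), the capillary lipase anchor *Gpihbp1* (0.812) and the semaphorin *Sema3c* (0.770) were all below 1. *Cd93* was at 1621 and 1727 CPM in remaining cells with 0 and 1 rule genes, lower at 1457, 1284 and 1381 in members with 2, 3 and 4, and at 374 in the members with 5.

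**Figure D3:**
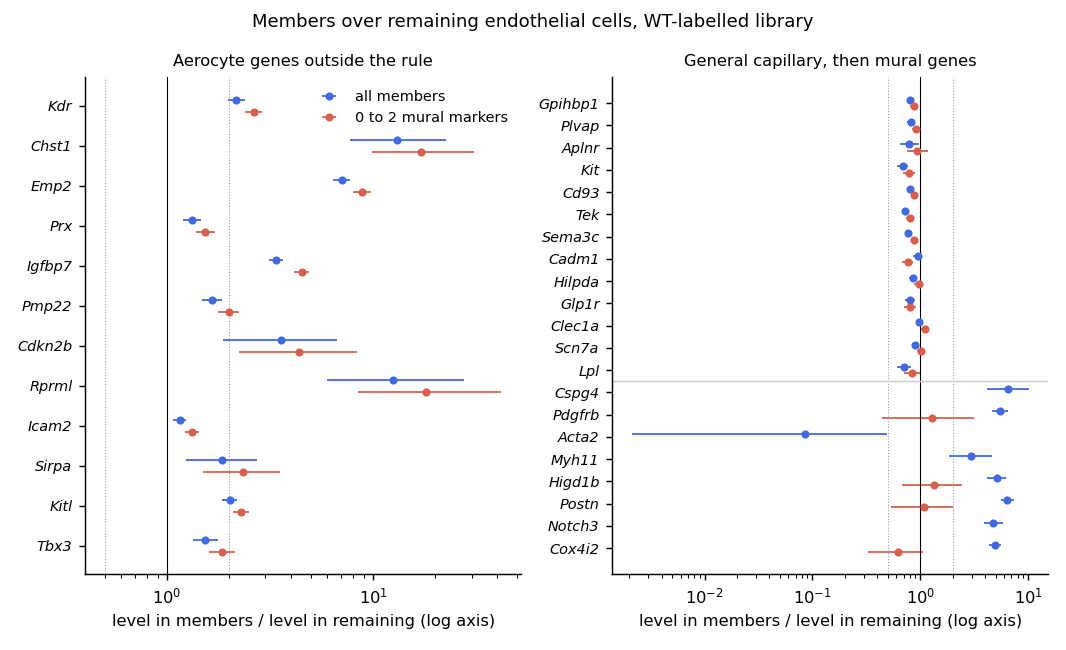
Ratio of the level in members to that in remaining endothelial cells of the WT-labelled library (log axis) with exact 95% counting intervals, for aerocyte genes outside the rule (left) and for general capillary and mural genes (right), over all cells and over cells with 0 to 2 mural markers. Of the aerocyte genes *Chst1*, *Rprml* and *Emp2* lie farthest from 1, the capillary genes lie near 1, and the mural genes other than *Acta2* exceed 2 over all cells only. Dotted lines mark 2-fold, and mural genes with under 30 UMIs in the cells with 0 to 2 mural markers are not drawn for those cells.

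Genes of other vessel types were mixed. Of the vein genes, *Slc6a2* was at 6.21 CPM in members and 79.1 in remaining cells (ratio 0.0785), *Vwf*, the clotting factor carrier, at 128 and 316 (0.404), *Vcam1* at 5.32 and 18.8 and *Car8* at 0.887 and 19.1, so 4 of 6 were at least 2-fold lower, where 4.36% of all genes were. *Nr2f2* was 2.01-fold higher, but at a ratio of 0.676 once cells with 3 or more mural markers, described below, were left out. Among arterial genes *Fbln2* and *Bmx* were at least 2-fold lower and 5 of 7 lay within 2-fold, with *Efnb2* at a ratio of 0.746 and *Gja4* at 0.886. Of the lymphatic list, 2 of 7 genes were at least 2-fold lower, the chemokine gene *Ccl21a* at a ratio of 0.201, whose reads can be shared with near-identical copies, and *Pdpn*. *Lyve1* was at 433 against 629.

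Signal pairs of the alveolus were described next, leaving out the rule genes. Of 10 measured genes of the apelin, KIT, endothelin and angiopoietin systems, 4 were at least 2-fold higher: *Kitl*, *Ednra* (6.39-fold), *Angpt1* (4.67-fold) and *Angpt2* (2.26-fold), where 4.1% of all genes were. Without the cells of 3 or more mural markers *Angpt1* turned to a ratio of 0.491, *Angpt2* came to 0.978 and *Ednra* had too few UMIs, and *Kitl* alone stayed at least 2-fold higher. In the lists that follow other than the cell cycle genes, 0 or 1 genes of most were past 2-fold, a share near that of all genes. The ligand *Angpt1* activates the receptor TEK, and *Tek* itself had a ratio of 0.722 and *Tie1* of 0.714. Of 10 VEGF genes only *Kdr* passed 2-fold, with *Flt1* at 0.832, *Nrp1* at 1.18 and *Vegfa* at 0.694. In the Notch list 1 of 11 genes, *Heyl*, was at least 2-fold higher (2.93), and *Dll4* was at 0.667. The clotting factor gene *F8* was 4.08-fold higher on 21 UMIs. Antigen presentation (10 genes), interferon response (10) and immediate early genes (14) had 0 genes past 2-fold in either direction over all members. In members with 3 or more rule genes and under 3 mural markers, 4 of 10 interferon and 2 of 14 immediate early genes were at least 2-fold lower. In that comparison 13.4% of all genes were. Of 7 cell cycle genes 4 were at least 2-fold lower over all members, where 4.36% of all genes were, on at most 6 UMIs each in members. Of 14 measured genes of the BMP and TGF-beta pathway 0 were higher and 1, *Bmp2*, was lower on 4 UMIs, and of 15 endothelial transcription factors *Nr2f2* alone passed 2-fold, with *Foxf1*, *Klf2* and *Erg* at ratios of 0.950, 1.00 and 0.833. Of 12 junction and adhesion genes 1, *Vcam1*, was lower, and of 14 genes of caveolae and transport 1, *Fabp4*, was higher.

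Genes of mural cells, the pericytes and smooth muscle cells that wrap small vessels, were higher in the members as well. Of 8 mural markers, 7 were at least 2-fold higher in members, where 4.1% of all genes were: *Postn* 6.44-fold, *Cspg4* 6.48-fold, *Pdgfrb* 5.46-fold, *Higd1b* 5.11-fold, *Cox4i2* 4.94-fold, *Notch3* 4.76-fold and *Myh11* 2.94-fold, whereas smooth muscle actin *Acta2* was at 0.887 against 10.3 CPM. Their sum was 1528 CPM (1457 to 1602) in members and 294 (280 to 308) in remaining cells, with *Postn* the most abundant in members at 475. At least 3 of the 8 were detected in 37 of 174 members (21.3%, 15.4 to 28.1) and in 40 of 1272 remaining cells (3.14%, 2.26 to 4.26). Such cells made up 24 of 101 members with 2 rule genes, 7 of 36 with 3, 6 of 25 with 4 and 0 of 12 with 5, the last allowing a share of up to 25%. The 37 cells had a median of 8537 UMIs against 5776 in the other 137 members, and Scrublet called 3 of them and 5 of the others doublets. *Tbx2* was at 642 CPM in the 37 cells, and among members with 2 rule genes it was at 683 in cells with 3 or more mural markers and at 97.9 in the rest. Whether 1 cell or 2 cells gave these droplets was not tested.

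With cells of 3 or more mural markers left out of both groups, 137 members remained. Fewer genes were higher and more were lower, since 221 of 10612 genes (2.08%) were at least 2-fold higher and 688 (6.48%) at least 2-fold lower. Aerocyte genes outside the rule were as far or farther apart, with 8 of 12 at least 2-fold higher and a median log2 ratio of 1.32 against 0.00 over all genes. *Emp2* had a ratio of 8.80 (7.95 to 9.75) and *Kdr* of 2.64. *Heyl* no longer had enough UMIs. Of 17 basement membrane and integrin genes, 4 were at least 2-fold higher over all members, where 4.1% of all genes were. These were *Lamb1*, *Nid2*, *Hspg2* and *Lama4*, at 2.39-fold to 4.57-fold. Among the cells with few mural markers 0 of 16 were at least 2-fold higher. *Fn1* was at least 2-fold lower in both comparisons. Among members with 3 or more rule genes and few mural markers, 60 cells, 11 of 12 aerocyte genes were at least 2-fold higher, where 3.61% of 10505 genes were, and 0 of 13 capillary genes were at least 2-fold lower, where 13.4% of all genes were. In those 60 cells *Emp2* reached 1998 CPM, *Igfbp7* 2247 and *Kitl* 1357.

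The genes farthest from a ratio of 1, ranked by the interval limit nearer to 1, came in part from single cells. The 4 globin genes, whose near-identical copies can share reads, led the list, with *Hbb-bs* at 1684 against 10.7 CPM, but 1 member with 3483 of its 11528 UMIs from erythroid genes supplied 99.0% of the members' erythroid UMIs. Likewise 1 cell gave 98.3% of the chemokine *Ccl17* UMIs, 53.4% of those of the serotonin receptor gene *Htr7* and 49.8% of those of the fatty acid binding protein gene *Fabp4*. *Rgs6*, a regulator of G protein signalling, was 13.5-fold higher (10.3 to 17.8) at 175 against 12.98 CPM, spread over 46 members with at most 12 UMIs in 1 cell. *Egflam* (9.38-fold, 46 members), *Fam162b* (9.17-fold, 35 members), *Aff2* (8.61-fold, 28 members) and *Spp1*, which encodes osteopontin (7.49-fold, 40 members), also stood high over all members. These moved with the mural-marked cells. Once such cells were left out of both groups, *Egflam* went from 158 to 45.8 CPM in members, *Fam162b* from 103 to 10.2 CPM (ratio 1.98) and *Spp1* from 494 to 22.9 CPM (ratio 0.897), and *Aff2* no longer had enough UMIs. Without mural-marked cells the ratios were 28.9 for *Rgs6*, 17.1 for *Chst1*, 17.8 for *Egflam*, 18.0 for *Rprml* and 16.7 for the phosphodiesterase gene *Pde8b*, next to those of the globins and *Ccl17*. In the 60 cells with 3 or more rule genes and few mural markers *Frrs1* was 20.6-fold and the talin gene *Tln2* 17.8-fold higher. *Pde8b*, *Frrs1* and *Tln2* were picked by rank in these additional comparisons, after values were seen.

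The lowest genes by the same ranking were known from other lung cells. The fibroblast gene *Dcn*, for the proteoglycan decorin, was at 3.55 against 284 CPM (ratio 0.0125), and *Pi16* at 1.77 against 59.1. Of 9 fibroblast markers 4 were at least 2-fold lower, where 4.36% of all genes were, and 2 at least 2-fold higher, where 4.1% were. These 2 were *Npnt* at 121 against 22.6 CPM and *Tcf21* at 27.5 against 11.4. All 9 summed to 427 against 746 CPM. Without mural-marked cells *Npnt* had a ratio of 3.25 and *Tcf21* of 1.42. The surfactant protein genes were lower too, with *Sftpc* at 58.5 against 1086 and *Sftpa1* at 5.32 against 170. *Cxcl15*, *Sftpb* and *Slc34a2* had 1, 5 and 1 UMIs in members. *Col14a1*, *Cygb*, *Kirrel3* and *Pcdh9* had 0 UMIs in members against 31.0, 30.3, 23.7 and 22.6 CPM in remaining cells, where 3 UMIs would have been 2.66. Summed over 8 type 2 alveolar markers the level was 108 CPM in members and 1443 in remaining cells. Leukocyte markers were similar in both groups, at 1509 and 1565 for 7 general leukocyte genes and 1752 and 1835 for 7 neutrophil genes, whose most abundant was *S100a9*. In the members with 3 or more rule genes and few mural markers *S100a9* was at 8.40 against 939. The 4 platelet markers summed to 64.7 CPM in members against 25.4, with *Pf4* the most abundant, and both that had enough UMIs, *Pf4* (2.01-fold) and *Ppbp* (3.20-fold), were at least 2-fold higher, also without mural-marked cells (2.76-fold and 4.70-fold). All 4 mesothelial markers were at 0 in both groups, and the 5 NK markers summed to 364 against 166, led by *Gzma*, of which 41.4% came from 1 cell. Without mural-marked cells the NK sums were 173 CPM in members and 173 in remaining cells. Airway epithelial markers summed to 248 and 276, and type 1 epithelial markers to 1215 and 1023, led by *Clic5*. The part of free RNA in these values was not tested.

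Within the rule, the clause on *Mertk*, an engulfment receptor used here as a macrophage gene, decided which aerocyte-like cells stayed. In the WT-labelled library 554 cells met the endothelial and aerocyte conditions, and 380 of them (68.6%, 64.5 to 72.4) were left out for an immune gene. *Mertk* was present in 355 of the 380 and was the only such gene in 293. Among endothelial cells that had none of the other 3 immune genes, those left out for *Mertk* were 71 of 172 with 2 rule genes, 42 of 78 with 3, 48 of 73 with 4 and 132 of 144 with all 5. Thus 12 of the 144 cells with all 5 genes were kept.

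**Figure D4:**
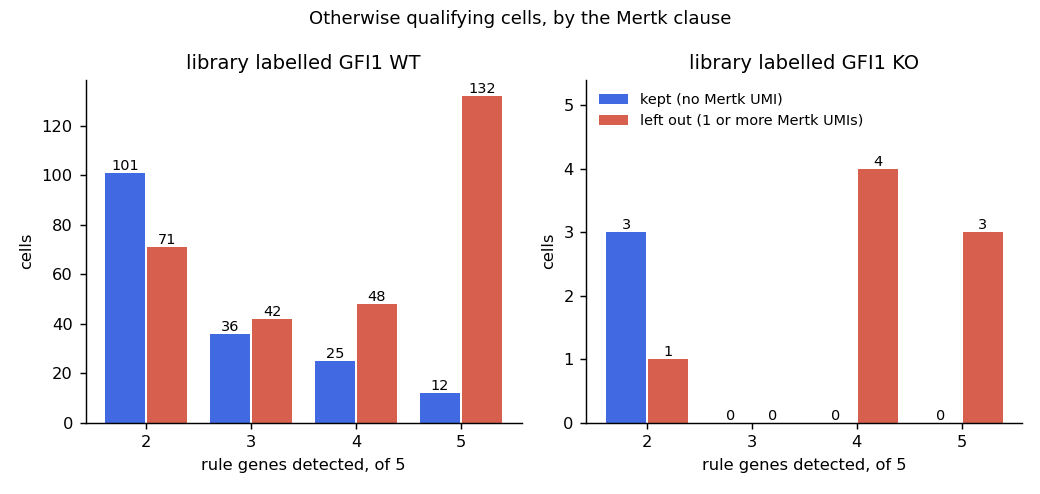
Number of cells that met the rule's other conditions, kept (0 *Mertk* UMIs) or left out (1 or more), by number of the 5 aerocyte genes detected, in the library labelled GFI1 WT (left) and GFI1 KO (right, different scale). With all 5 genes 132 of 144 WT-labelled cells were left out, and in the KO-labelled library all 7 cells with 4 or 5 genes were.

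*Mertk* in these cells was compared with its level in other cells, among endothelial cells with at most 1 of 8 alveolar macrophage markers and under 3 mural markers. It was detected in 115 of 127 cells with all 5 rule genes (90.6%, 84.1 to 95.02, median 8005 UMIs) and in 420 of 1144 cells with 0 (36.7%, 33.9 to 39.6, median 4329 UMIs). In B cells, which should lack it, it was found in 158 of 3444 (4.59%, 3.91 to 5.34, median 4568 UMIs), and in alveolar macrophages in 99.0% (median 14196 UMIs). With each cell thinned to 1500 UMIs the shares were 39.4%, 16.1%, 2.39% and 70.3%, over 127, 1055, 3437 and 4281 cells deep enough. The level was 393 CPM (355 to 433) with 5 rule genes, 134 (124 to 145) with 0, 115 (110 to 120) in B cells and 1170 in alveolar macrophages, so cells with 0 rule genes lay close to B cells in level. The median count among positive cells was 3 *Mertk* UMIs with 5 rule genes, 1 with 0, 10 in B cells and 12 in macrophages.

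The cells left out for *Mertk* alone were described in the same way. In the 188 such cells with 3 or more rule genes and few mural or macrophage markers, the 12 aerocyte genes summed to 15789 CPM, the 13 capillary genes to 6469 and the 8 mural genes to 44.2. Of these cells 115 had all 5 rule genes, so they are not matched to the members as a whole, and the 12 members with all 5 had the higher aerocyte sum and the lower capillary sum given above. Against 696 cells also left out for *Mertk* but with 0 or 1 rule genes, 12 of 12 aerocyte genes were at least 2-fold higher, where 4.53% of 10017 genes were, with a median log2 ratio of 2.88, and 10 of 13 capillary genes were at least 2-fold lower, where 7.84% were. *Emp2* was at 3244 against 105 CPM, *Igfbp7* at 3419 against 194, *Kitl* at 2070 against 392, *Kdr* at 1871 against 293 and *Chst1* at 194 against 1.38. *Cd93* was at 610 against 1753 and *Gpihbp1* at 430 against 1003. Epithelial markers were lower in the same comparison, with 5 of 5 airway and 6 of 7 type 2 markers at least 2-fold lower. The airway gene *Scgb1a1* was at 140 against 4762 CPM, and 1 type 2 marker was at least 2-fold higher.

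A clustering of the cells that withheld the 15 rule genes was set beside the rule. The 2655 endothelial cells of both libraries selected without the *Mertk* clause were clustered on 2000 variable genes into 18 clusters. The cluster with the highest sum of the 12 further aerocyte genes, 19070 CPM, was picked by that sum and is called aerocyte-like. Those 12 genes were not withheld from the clustering. Neither the sum nor the place of *Chst1* and *Rprml* among the 10 leading genes of this cluster is therefore a separate check. It held 178 cells, 171 WT-labelled and 7 KO-labelled. It took in 18 of the 174 WT-labelled members (10.3%, 6.25 to 15.9), namely 0 of 101 with 2 rule genes, 2 of 36 with 3, 5 of 25 with 4 and 11 of 12 with 5. It also took in 153 of 222 WT-labelled cells left out for *Mertk* with 3 or more rule genes, and 0 of the 1208 and 869 cells with 0 and 1 rule genes. Of the other members of either library, 23 were in a cluster of 60 cells whose cells all had 3 or more mural markers, and 37 and 23 were in clusters with capillary sums of 12763 and 13316 CPM. Those shares rest on clusters built from the same cells and were not tested.

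The upstream sequences of aerocyte genes are shown because the summed level of the list rose with the number of rule genes, 250 bases before each gene's start as RefSeq gives them for build GRCm38.p6, whereas the counts were made on GRCm39. Of the 5 rule genes and 12 further aerocyte genes, 13 matched, with 16 windows in all. Capitals mark the ETS core CGGAAG or its reverse complement, ETS factors being general regulators of endothelial genes. Shown are *Car4*, the rule gene found in most members (chr11:84957504-84957753, plus strand), *Kitl* (chr10:100015571-100015820, plus strand) and *Emp2* (chr16:10313969-10314218, minus strand).
Car4: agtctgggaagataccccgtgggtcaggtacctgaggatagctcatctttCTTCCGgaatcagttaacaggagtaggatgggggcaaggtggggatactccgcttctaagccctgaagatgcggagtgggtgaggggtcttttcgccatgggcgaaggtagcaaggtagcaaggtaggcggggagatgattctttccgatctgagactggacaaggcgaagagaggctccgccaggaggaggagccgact
Kitl: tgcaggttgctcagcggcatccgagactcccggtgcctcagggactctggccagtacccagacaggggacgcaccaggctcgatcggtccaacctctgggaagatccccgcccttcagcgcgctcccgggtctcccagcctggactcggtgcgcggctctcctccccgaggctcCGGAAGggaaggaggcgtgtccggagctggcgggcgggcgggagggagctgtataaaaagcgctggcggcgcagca
Emp2: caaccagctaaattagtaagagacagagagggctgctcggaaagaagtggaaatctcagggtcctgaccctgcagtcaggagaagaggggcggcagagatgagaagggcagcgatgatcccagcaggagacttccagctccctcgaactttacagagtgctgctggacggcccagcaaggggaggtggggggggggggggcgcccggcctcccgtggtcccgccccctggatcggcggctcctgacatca
The ETS core was found upstream of 3 of the 13 genes, *Car4*, *Cdkn2b* and *Kitl*, and in 13.6% of all 32851 windows on either strand. The T-box half-site GGTGTG was found upstream of 0 of the 13 genes and in 16.3% of all. A match is a run of letters and not a measured binding site, and 0 matches says only that these letters are not in the windows.

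Between the labels the members could be set side by side only loosely, since the KO-labelled library had 3. Endothelial cells were 72 of 10495 cells (0.686%, 0.537 to 0.863) in the KO-labelled library and 1446 of 19342 (7.48%, 7.11 to 7.86) in the WT-labelled library. Members were 3 of the 72 (4.17%, 0.868 to 11.7) and 174 of the 1446 (12.03%, 10.4 to 13.8), intervals that overlapped. With the rule applied to cells thinned to 1500 UMIs, which also lowers detection of *Mertk*, they were 4 of 85 (4.71%, 1.30 to 11.6) and 160 of 2040 (7.84%, 6.71 to 9.10), intervals that overlapped. In RNA from such a library fewer cells of a type in the lung and fewer recovered by dissociation cannot be told apart. With the *Mertk* clause left out and at least 3 rule genes required, the shares were 7 of 111 (6.31%, 2.57 to 12.6) and 295 of 2544 (11.6%, 10.4 to 12.9), intervals that overlapped. With cells of few mural and macrophage markers they were 7 of 109 (6.42%, 2.62 to 12.8) and 246 of 2255 (10.9%, 9.65 to 12.3), and these intervals overlapped as well.

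The KO-labelled members each had 2 rule genes. The first had 1 UMI each of *Tbx2* and *Car4*, with 0 of *Emp2*, 1 of *Kdr* and 8 of *Cd93* among 6291 UMIs. The second had 1 of *Fibin* and 2 of *Car4*, with 0 of *Emp2*, 2 of *Kitl* and 15 of *Cd93* among 5013. The third had 2 of *Fibin* and 2 of *Car4*, with 3 of *Emp2*, 3 of *Kitl* and 10 of *Cd93* among 5561. All 3 lay outside the aerocyte-like cluster, and 0 was called a doublet. All 7 KO-labelled cells with 4 or 5 rule genes had *Mertk* UMIs (585 CPM, 362 to 895) and fell in that cluster. In those 7 cells *Emp2* was at 4850 CPM (4156 to 5626), *Igfbp7* at 5769, *Kdr* at 2146 and *Kitl* at 2258. The 246 WT-labelled cells with 3 or more rule genes and few mural and macrophage markers, with or without *Mertk*, had 3015, 3208, 1737 and 1944, and 62 of them had exactly 3 rule genes, which none of the 7 did. These values set 7 cells against 246 from 1 library each, and the difference has no replicate check.

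Genes with the largest difference between the labels within members were also ranked by the interval limit nearer to 1. Those higher in the KO-labelled 3 cells were *Depp1* (523 against 23.9 CPM), the apoptosis gene *Bbc3* (523 against 39.9), *Tmem252* (1112 against 124), the adhesion molecule gene *Icam1* (1177 against 152) and the semaphorin gene *Sema7a* (785 against 135). They rested on 8 to 18 UMIs each in those cells, and the KO-labelled remaining cells were not set beside them here. *Depp1* was among the 10 leading genes of a cluster from the clustering above. That cluster held 39 of the 111 KO-labelled and 89 of the 2544 WT-labelled clustered cells, and 1 of the 39 was a member. *Hbb-bs*, *Hba-a1*, *S100a9* and the potassium channel gene *Kcnq5* had 0 UMIs in the 3 KO-labelled members, and *Pdzd2* had 3. A count of 0 in 15289 UMIs allows a level of up to 196 CPM, below the 1684, 774, 943 and 1244 of the WT-labelled members. The globin values of those members came from 1 cell, as given above. *S100a9* was uneven among them, at 1120 CPM with 2 rule genes and at 695 with 3 or more. Among the latter it was at 8.40 in the cells with few mural markers. Over all WT-labelled members it was at 1199 CPM with 3 or more mural markers and at 832 with fewer. *Kcnq5* and *Pdzd2* moved with the mural-marked cells, of which the KO-labelled members had 0 of 3 and the WT-labelled members 37 of 174. In the WT-labelled members without such cells *Kcnq5* was at 35.6 CPM, below the limit of 196, and *Pdzd2* at 165 CPM, below the 196 CPM that its 3 UMIs make in the KO-labelled members.

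Antibody tags counted in the same files gave a second readout of the members. The median CD45 tag count in the WT-labelled library was 8 per member and 7 per remaining endothelial cell, against 509 in B cells and 1534 in alveolar macrophages. CD11c was at 34, 21, 6 and 924 in the same order. The tag for CD117, the KIT protein, had a median of 226 in members, 136 in remaining cells and 5 in B cells. Both isotype controls moved the same way, with medians of 21.5 and 2 in members, 12 and 1 in remaining cells and 2 and 0 in B cells, and members held more UMIs per cell. The part of unspecific staining in the CD117 counts was not tested.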

How the data were processed

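The authors made 10x Genomics 3′ libraries from live-sorted cells of dissociated adult lungs, in duplicate per genotype according to the study's methods. The files used here hold 1 library per label, and others were not analysed here. The authors deposited filtered matrices of UMI counts per gene and antibody tag (33696 genes and 18 tags). The submitters' processing notes name Cell Ranger 9.0.1 and GRCm39 (mm39). The matrices held 116825535 gene UMIs in 10700 barcodes for the KO-labelled library and 162599284 in 19515 for the WT-labelled library.

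Cells were kept as stated in the report. Groups came from the detection rule, applied in Python 3.11.15 with pandas 2.3.3, numpy 2.4.6 and scipy 1.17.1. Counts were summed per group and divided by the total without ribosomal, mitochondrial and Gm genes (9538 left out), as CPM. Genes with at least 30 UMIs over both groups and a ratio of 2 or more were counted, and log2 ratios used an added 0.5 UMI. Intervals are exact Poisson, Clopper-Pearson and conditional binomial ones. No test was made and no p-value is given, because each label had 1 library here and cells are not replicates. Scrublet in scanpy 1.11.5, run per library, called 3.30% of KO-labelled and 5.88% of WT-labelled cells, and these were kept. Clustering used 30 components, 15 neighbours and Leiden resolution 0.8 (leidenalg 0.10.2). The ratio scripts were tested on simulated data.

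Named were the rule genes, genes of fixed lists, the 12 highest and 12 lowest genes outside the rule, the 5 highest and 5 lowest between the labels, *Gfi1* and antibody tags. Highest and lowest were ranked by the limit of the ratio's interval nearer to 1, not by the ratio itself. One gene among the 12 lowest is not reported, because its symbol stands for more than 1 identifier in the files. The members and lists were chosen with earlier results of these data known. Reference cells were B cells with at least 4 of their 6 markers and alveolar macrophages with at least 5 of 8, each with at most 1 endothelial gene.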

Additional observations from a re-analysis of the deposited data

Results flagged for a closer look

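For 5 of 225 listed genes with an interval in both libraries, the ratio of members to remaining endothelial cells lay above 1 in the KO-labelled library and below 1 in the WT-labelled library, with counting intervals that left out 1 on both sides. The sodium channel gene *Scn7a* had a KO-labelled ratio of 1.63 (27 UMIs in the 3 members), against 740 and 822 CPM in WT-labelled members and remaining cells. The antigen-presenting molecule gene *H2-K1* had a ratio of 1.51 (44 UMIs), against 2166 and 2373, and *Ifitm3*, an interferon-induced gene, had 1.51 (51 UMIs), against 2041 and 2287. *Ciita*, the activator of class II antigen genes, had a ratio of 13.3 on 5 UMIs, against 42.6 and 63.8. *Zfp36*, which encodes an RNA-binding protein, had a ratio of 2.36 on 9 UMIs, against 416 and 473. Whether 5 is more than such a scan gives was not tested. The difference between the libraries was not tested, because each label had 1 library, and each KO-labelled value comes from 3 cells.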

How the results depend on the processing

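The members' share of endothelial cells and the counts of genes past 2-fold were recomputed under the alternatives that bear on each. So were the median log2 ratios of the aerocyte and capillary lists. This gave 74 values, and 0 of these reversed. Only the medians have a sign that could reverse, since shares and counts cannot be negative. The shares do not depend on the UMI minimum, fold, added count, denominator, averaging or comparison cells, the medians do not depend on the fold, and the counts do not depend on the added count, so these were not rerun. With at least 3 rule genes the shares were 5.05% (WT-labelled) and 0% (KO-labelled), 1158 genes were lower and the medians were 1.73 and -0.44. With cells thinned to 1500 UMIs before the rule, the WT-labelled share was 7.84%, 1669 genes were lower and the medians were 2.61 and -1.39. Thinning also lowers detection of *Mertk*, so endothelial cells rose from 1446 to 2040 and the share does not isolate depth. Genes higher and lower numbered 204 and 125 with at least 100 UMIs, 1593 and 3306 with at least 1 UMI, 990 and 1025 at 1.5-fold, and 234 and 248 at 3-fold. The alternatives that follow were chosen after seeing the data. Without the *Mertk* clause the share was 18.4% and the medians were 1.97 and -0.65. Without cells of 3 or more mural markers the share was 10.0%, 221 genes were higher and the capillary median was -0.19. With both changes, and cells of macrophage markers also left out, the share was 16.5% and the medians were 2.47 and -0.76. The causes were not tested. The KO-labelled share stayed within its interval under 7 of 8 alternatives. From 4.17% it came to 9.91% without the *Mertk* clause, and to 10.1% with cells of mural or macrophage markers left out as well. No paired analysis was possible because each label had 1 library and no test was made. In the 3 KO-labelled members a count of 0 allowed up to 196 CPM. Genes with 0 UMIs there and a WT-labelled level below 196 CPM therefore could not be compared between the labels.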
